A study of Mus musculus with 4 samples.

Results

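The genes described here encode the core machinery of DNA replication in mouse cells. They were chosen by symbol alone and comprise the subunits of the origin recognition complex (*Orc1* to *Orc6*), *Cdc6*, *Cdt1* and *Gmnn*, the MCM proteins (*Mcm2* to *Mcm10*), *Cdc45* and the GINS subunits (*Gins1* to *Gins4*), the subunits of DNA polymerases alpha, delta and epsilon and of primase, the clamp loader (*Rfc1* to *Rfc5*), RPA (*Rpa1* to *Rpa3*), *Fen1* and *Lig1*. The rule was met by 45 of the 55602 genes in the expression data, and all 45 were also among the genes with allele-specific counts. RNA was measured in 4 libraries labelled as neural progenitor cells, 2 wild-type and 2 *Zfp57*-/-, derived from embryonic stem (ES) cells. The wild-type cells were JB1, a male hybrid ES line with a JF1 mother and a B6 father, and the *Zfp57*-/- cells were derived from JB1. *Zfp57* encodes a zinc finger protein that maintains DNA methylation at imprinting control regions. Both genotypes were plated and differentiated in the same way, in defined default medium with 1 µM cyclopamine, a hedgehog pathway inhibitor, from day 2 to day 10, and were harvested at day 12 of corticogenesis (day 12-JB1 cells). Both had been kept before that in an ES medium with 3 µM CHIR99021, a kinase inhibitor. The labels call the 2 libraries of a genotype biological duplicates. One knockout line stood for the genotype, so the deletion and the line cannot be told apart, and p-values measure only the spread between these libraries.

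Replication starts with licensing. The origin recognition complex, CDC6 and CDT1 load the ring-shaped MCM2-7 helicase onto DNA in G1, and geminin, the product of *Gmnn*, binds CDT1 to prevent a repeat of loading. In S phase CDC45 and GINS join MCM2-7 to form the active CMG helicase, RPA coats the single strands, polymerase alpha-primase lays the primers, the clamp loader places PCNA, and polymerases epsilon and delta extend the leading and lagging strands. FEN1 and LIG1 then process and seal the Okazaki fragments. Most of these genes are known as E2F targets whose transcription rises towards S phase, and in the developing cortex they mark dividing progenitors, whereas postmitotic neurons turn them off. Pluripotent cells spend most of their cycle in S phase.

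The libraries held between 7663520 and 10337082 counts in genes. *Zfp57* itself had 392 and 249 counts in the wild-type libraries and 158 and 144 in the *Zfp57*-/- libraries, a log2 fold change of -1.19 (SE 0.32, adjusted p = 0.0225, edgeR quasi-likelihood test with Benjamini-Hochberg adjustment, as for every adjusted p below). Transcript outside the deleted part is counted too, so the remaining reads do not by themselves go against the label. The wild-type libraries differed more from each other (median absolute log2 difference over all tested genes 0.446) than the *Zfp57*-/- libraries did (0.222). The labelled cell type was checked against markers fixed as lists. Neural progenitor markers summed to 1555 and 1783 CPM (counts per 1000000 of TMM-adjusted library size) in wild-type cells and to 1130 and 1144 CPM in *Zfp57*-/- cells, and 6 of the 8 genes fell. *Vim*, with 738 and 732 CPM, held most of the knockout level, followed by *Nes*, with 190 and 195 CPM, and *Sox2*, which pluripotent cells express as well, with 144 and 168 CPM. *Hes5* was at 1.29 and 1.02 CPM and *Pax6* at 3.97 and 2.86 CPM there. Neuron markers fell in 9 of 10 cases, from summed levels of 1661 and 2031 CPM to 215 and 169 CPM. Pluripotent cell markers were higher in 7 of 7 cases, with summed levels of 4.21 and 7.92 CPM against 1240.5 and 1085 CPM, and *Nanog* had 0 counts in both wild-type libraries. The markers of the *Zfp57*-/- libraries thus bore out the neural progenitor label only in part. Endoderm markers summed to 338 and 504 CPM against 454 and 617 CPM (1 of 7 fell), and endothelial markers to 89.9 and 111 CPM against 109 and 130 CPM (2 of 4 rose and 1 fell). The part of these cell types in the results below was not tested.

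The first comparison asked how expression of the replication genes differed between *Zfp57*-/- and wild-type day 12-JB1 cells. With a threshold of 0.05 on the adjusted p, 21 of the 45 genes were higher in the knockout, *Orc4* alone was lower, and 23 did not pass. Over all 19995 tested genes 27.6% were called, 13% as higher and 14.6% as lower. The replication genes had a median log2 fold change of 0.59 against -0.01 for all tested genes, and 40 of the 45 had a positive sign. In bulk RNA, fewer cells expressing a gene and less RNA per cell cannot be told apart. Both *Zfp57*-/- libraries lay above both wild-type libraries for 33 replication genes (33.7% of all tested genes did so) and below them for 1 (32.6%), and for 11 genes the groups overlapped. The summed level of the 45 genes was 2463 and 3104 CPM in the wild-type libraries and 4513 and 4373 CPM in the *Zfp57*-/- libraries.

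The wild-type libraries were not interchangeable for these genes. Wild-type replicate 2 lay above wild-type replicate 1 for 38 of the 45, against 48.9% of all tested genes, with a median log2 difference of 0.37, whereas between the *Zfp57*-/- libraries the median difference was -0.03. The median log2 fold change of the replication genes between genotypes was 0.42 without wild-type replicate 1 and 0.81 without wild-type replicate 2. Over all tested genes these medians were 0.03 and 0.02. Without wild-type replicate 1, 25 genes were called higher (20.8% of all genes tested), and without wild-type replicate 2, 35 were (26.6%). Leaving out *Zfp57*-/- replicate 1 or replicate 2 left 7 or 8 genes higher, at backgrounds of 6.7% and 6.94%. Of the 22 called genes, 8 kept their call whichever library was left out, namely *Orc1*, *Orc4*, *Cdc6*, *Mcm3*, *Mcm5*, *Mcm6*, *Rfc5* and *Rpa2*, and all 22 kept their sign. Scaling on *Actb* in place of TMM moved the median of all genes to -0.68 and that of the replication genes to -0.06, which placed them 0.62 above all genes against 0.60 with TMM. On the *Actb* scale 0 replication genes were called higher, at a background of 2.43% of all tested genes. There 18 replication genes changed sign, *Pole* being the 1 called gene among them. Of the calls over all genes, 14% were higher on that scale against 47.2% with TMM.

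**Figure D1:**
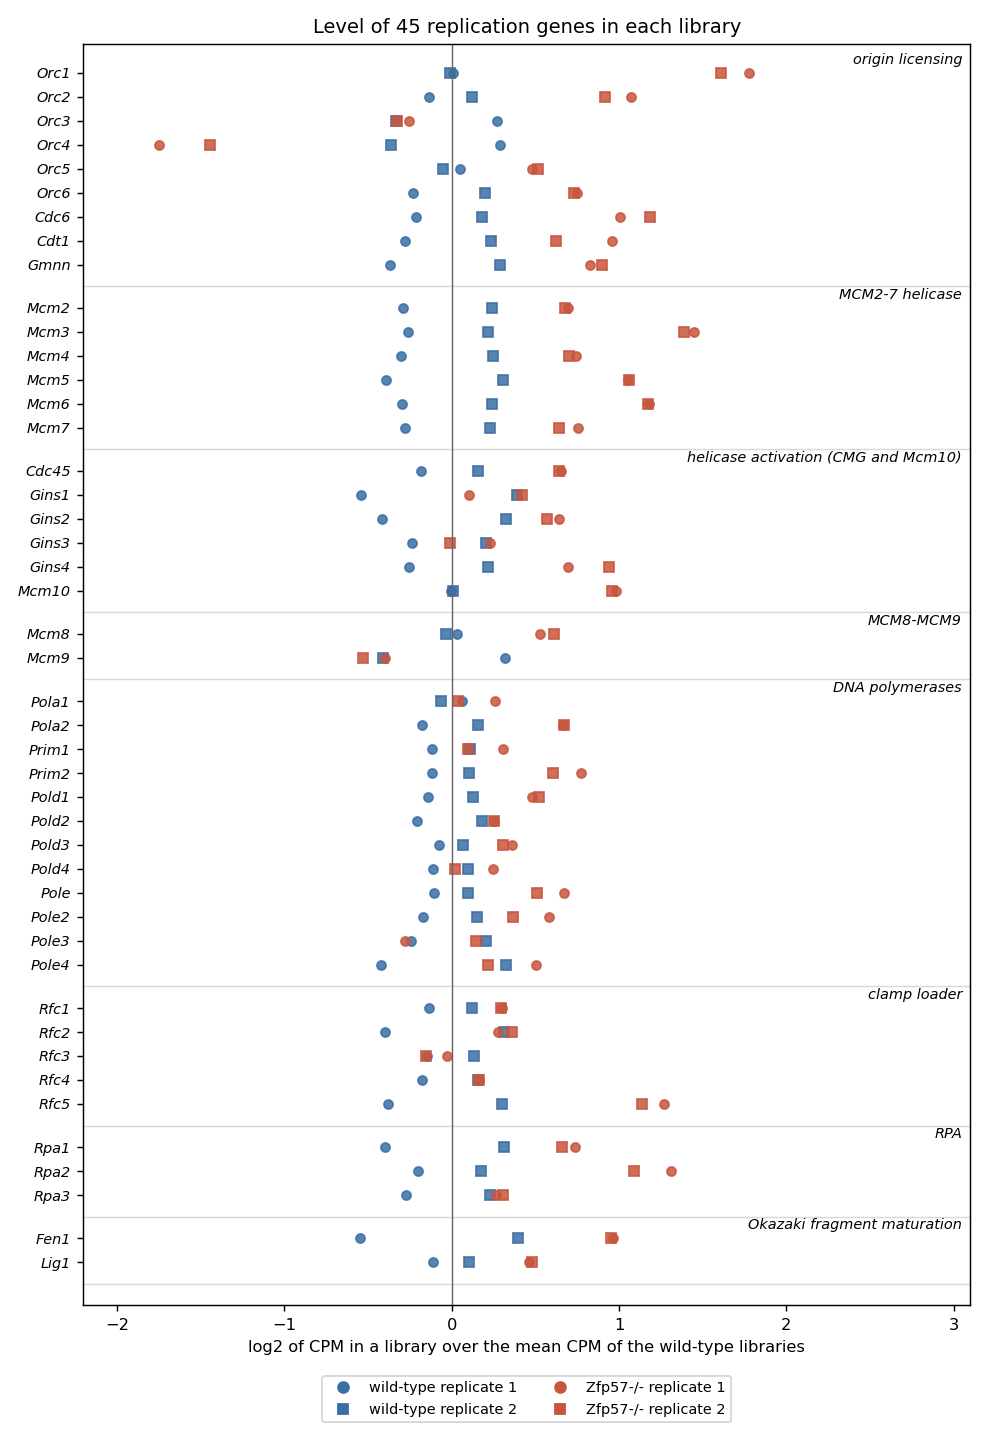
Level of each of the 45 replication genes in each of the 4 libraries, as log2 of CPM over the mean of the wild-type libraries, grouped by role. The Zfp57-/- libraries sit to the right of both wild-type libraries for 33 genes and to the left of both for Orc4, on the TMM scale.

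Among the 9 licensing genes 6 rose and 1 fell, with a median log2 fold change of 0.80. *Orc1* encodes the largest subunit of the origin recognition complex and an ATPase (ENSMUSG00000028587.18, plus strand, GRCm38 chr4:108579423-108614833). Its level was 17.7 and 17.5 CPM in the wild-type pair and 60.3 and 53.7 CPM in *Zfp57*-/- cells. The *Zfp57*-/- libraries were both far above the wild-type pair, and the log2 fold change of 1.70 (SE 0.20, adjusted p = 0.000273) was the largest of the 45. *Orc2*, another core subunit, had 54.0 and 64.3 CPM against 125 and 112 CPM (1.00, SE 0.20, adjusted p = 0.00459). *Orc6*, the smallest subunit, had 47.3 and 63.9 CPM against 93.6 and 92.4 CPM (0.74, SE 0.21, adjusted p = 0.0252). Neither gene's groups overlapped. *Orc5* had 35.9 and 33.4 CPM against 48.4 and 49.6 CPM and did not pass (0.50, SE 0.19, adjusted p = 0.0806). *Orc3* had 112 and 73.5 CPM against 77.7 and 73.8 CPM and did not pass (-0.29, adjusted p = 0.384), with overlapping groups.

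*Orc4* went the other way. This subunit of the origin recognition complex (ENSMUSG00000026761.12, minus strand, GRCm38 chr2:48902824-48950277) had 105 and 66.9 CPM in wild-type cells and 25.7 and 31.7 CPM in *Zfp57*-/- cells. Both *Zfp57*-/- libraries lay below both wild-type libraries, and the log2 fold change was -1.58 (SE 0.25, adjusted p = 0.00147). The call held in every alternative tried, including each library left out and the *Actb* scale. Per kilobase of exon, as FPKM, the lowest subunit of the complex was *Orc1* in wild-type cells, at 5.06 ± 0.05 (SD, n = 2), and *Orc4* in *Zfp57*-/- cells, at 3.84 ± 0.57. *Orc6* was the highest in both, at 22.5 ± 4.74 and 37.7 ± 0.34. The ratio of the highest to the lowest subunit was 4.45 among wild-type and 9.8 among knockout means.

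The loading factors rose with *Orc1*. *Cdc6*, the ATPase that recruits the helicase with *Cdt1*, had 33.3 and 43.7 CPM against 77.5 and 87.5 CPM (1.10, SE 0.21, adjusted p = 0.00401). *Cdt1*, which escorts MCM2-7 to the origin, had 29.1 and 41.5 CPM against 68.7 and 54.5 CPM (0.80, SE 0.23, adjusted p = 0.0303). Its inhibitor geminin moved in the same direction, with *Gmnn* at 19.2 and 30.3 CPM against 43.9 and 46.1 CPM (0.86, SE 0.25, adjusted p = 0.0276). The groups overlapped for none of the 3, but the calls of *Cdt1* and *Gmnn* were lost when a *Zfp57*-/- library was left out.

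All 6 genes of the MCM2-7 helicase were higher in *Zfp57*-/- cells, with log2 fold changes from 0.68 to 1.42 and a median of 0.89. *Mcm3* had 117 and 163 CPM in wild-type cells and 383 and 367 CPM in *Zfp57*-/- cells (1.42, SE 0.21, adjusted p = 0.00106). *Mcm6* had 168 and 244 CPM against 466 and 463 CPM (1.17, SE 0.22, adjusted p = 0.00362). *Mcm5*, the partner of *Mcm2* at the gate of the ring, had 81.6 and 133 CPM against 223 and 224 CPM (1.06, SE 0.24, adjusted p = 0.0102). These 3 genes moved more than the other 3 and kept their calls with any library left out. *Mcm2* had 131 and 189 CPM against 259 and 255 CPM (0.68, adjusted p = 0.0419). *Mcm4* had 124 and 181 CPM against 255 and 248 CPM (0.72, adjusted p = 0.0359). *Mcm7* had 166 and 236 CPM against 339 and 313 CPM (0.70, adjusted p = 0.0375). For each of the 6 genes wild-type replicate 2 lay above replicate 1 and below both *Zfp57*-/- libraries. All 6 were called without either wild-type library, 3 were called without either *Zfp57*-/- library, and 0 on the *Actb* scale, where their signs stayed positive.

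The subunits assemble in equal copies, and their RNA levels were compared per kilobase of exon. In wild-type cells they ran from 23.0 ± 5.92 FPKM (SD, n = 2) for *Mcm2* to 45.4 ± 11.2 FPKM for *Mcm7*, a ratio of 1.97. Values of neighbours in that order overlapped between the wild-type replicates, but within each of these libraries the subunits ranked alike. In *Zfp57*-/- cells they ran from 37.0 ± 0.36 FPKM for *Mcm2* to 100.01 ± 2.96 FPKM for *Mcm3*, a ratio of 2.7. *Mcm3* and *Mcm6* (99.5 ± 0.43 FPKM) were within the spread of each other there and stood above the other 4.

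**Figure D2:**
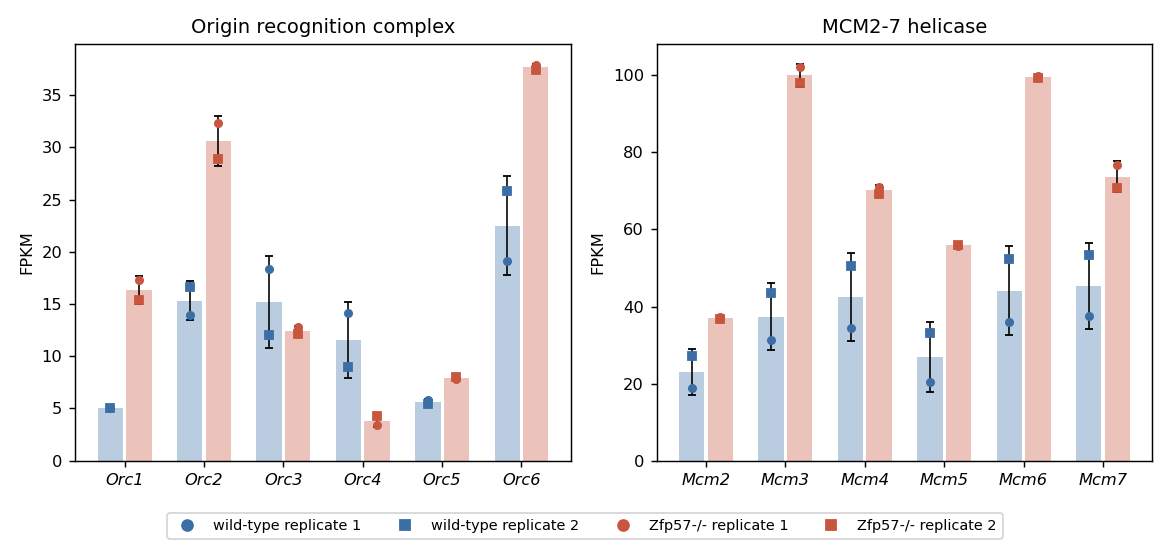
Level in FPKM of the 6 subunits of the origin recognition complex and the 6 subunits of the MCM2-7 helicase. Bars are means of the 2 libraries of a genotype, error bars the SD and points the libraries; Orc4 is the lowest origin recognition subunit in Zfp57-/- cells, at 3.84 FPKM, and Mcm3 and Mcm6 are the highest helicase subunits there, at 100.01 and 99.5 FPKM.

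The genes were searched for the E2F recognition letters, TTTNNCGC with each N being C or G, on both strands of the window from 250 bases before to 50 after the RefSeq start. A window was at hand for 37 of the 45 genes (46 windows), and 17 of them (45.9%) held the letters, against 2.6% of 27025 genes with a window and 2.26% of 32851 windows of that length. Where the letters run into their own reverse complement, 2 matches overlap. A match is a description of the letters and not a binding site. Stretches of 30 bases from RefSeq on GRCm38.p6 are shown for genes that rose, to set the letters beside the values above, with every match in capitals and the sequence read along the gene's strand.
Orc1 (chr4:108579416-108579445, plus strand): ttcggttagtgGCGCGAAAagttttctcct
Cdc6 (chr11:98908002-98908031, plus strand): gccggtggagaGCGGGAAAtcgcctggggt
Cdt1 (chr8:122568035-122568064, plus strand): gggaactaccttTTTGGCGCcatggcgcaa
Mcm3 (chr1:20820265-20820294, minus strand): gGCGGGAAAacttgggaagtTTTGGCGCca
Mcm5 (chr8:75109347-75109376, plus strand): gccaagaacTTTCGCGCCAAAacgtccagc
Mcm6 (chr1:128359795-128359824, minus strand): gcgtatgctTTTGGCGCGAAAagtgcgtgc
Mcm6 (chr1:128359734-128359763, minus strand): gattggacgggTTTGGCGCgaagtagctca
Mcm7 (chr5:138172030-138172059, minus strand): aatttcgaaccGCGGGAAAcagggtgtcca
Mcm7 (chr5:138171849-138171878, minus strand): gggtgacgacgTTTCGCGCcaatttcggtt

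The same letters stood in genes that did not pass. They are shown here for *Rfc3*, with a log2 fold change of -0.09, *Pola1*, with 0.15, and *Gins3*, with 0.11.
Rfc3 (chr5:151651195-151651224, minus strand): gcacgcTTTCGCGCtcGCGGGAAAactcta
Pola1 (chrX:93632275-93632304, minus strand): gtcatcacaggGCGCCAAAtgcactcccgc
Gins3 (chr8:95633507-95633536, plus strand): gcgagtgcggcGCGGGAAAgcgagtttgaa

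The letters were present in 7 of 16 genes that rose (43.8%) and in 10 of 20 that did not pass (50%), and were not found in the window of *Orc4*. *Orc2*, *Orc6*, *Mcm2*, *Cdc45*, *Mcm10*, *Pola2*, *Rfc5*, *Rpa2* and *Fen1* rose and held no match in the window. Over all 546 tested genes with the letters 15% were called higher and 12.1% lower, with a median log2 fold change of 0.10, against 14.7% and 15.7% of 12048 tested genes without them. The letters CCAAT, the core of the NF-Y motif, were found on either strand in 23 of the 37 windows' genes (62.2%), against 41.1% of all genes with a window, in 11 of 16 that rose and in 11 of 20 that did not pass.

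Of the 6 genes that turn the loaded ring into an active helicase 3 rose. *Mcm10*, needed for the CMG complex to start unwinding, had 46.7 and 47.1 CPM against 92.6 and 91.0 CPM, with close duplicates in both genotypes (0.97, SE 0.18, adjusted p = 0.00389). *Gins4* had 24.8 and 34.3 CPM against 47.8 and 56.7 CPM (0.82, SE 0.23, adjusted p = 0.0238). *Cdc45* had 25.6 and 32.5 CPM against 45.7 and 45.3 CPM (0.64, SE 0.21, adjusted p = 0.0449) and lost its call in the DESeq2 test. The other GINS subunits were at lower levels and did not pass. *Gins2* had 13.1 and 22.0 CPM against 27.4 and 26.1 CPM (adjusted p = 0.133), without overlap, whereas the groups overlapped for *Gins1* (12.6 and 24.1 CPM against 19.8 and 24.5 CPM) and *Gins3* (10.4 and 14.1 CPM against 14.4 and 12.2 CPM). The 4 GINS proteins form 1 complex, yet the log2 fold changes ran from 0.11 to 0.82. Per kilobase *Gins4* was the highest in both genotypes, 5.11 and 7.9 times the lowest subunit. The lowest in wild-type cells was *Gins2*, of which 67.3% of exon bases overlapped a gene on the opposite strand. The effect of that overlap on its level was not tested. The duplicates of the low genes spread widely, and differences between the GINS fold changes were not tested.

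*Mcm8* and *Mcm9* are related to the helicase subunits but act together in homologous recombination, and neither passed. *Mcm8* had 19.8 and 18.997 CPM against 28.0 and 29.6 CPM (0.57, adjusted p = 0.0746), without overlap. *Mcm9* had 33.6 and 20.2 CPM against 20.4 and 18.6 CPM (-0.46, adjusted p = 0.243), and its groups overlapped.

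Of the 12 polymerase and primase genes 3 rose, and the median log2 fold change was 0.35. *Pole*, the catalytic subunit of the leading-strand polymerase epsilon, had 95.7 and 110 CPM against 163 and 146 CPM (0.59, SE 0.19, adjusted p = 0.0441). *Pola2*, the regulatory subunit of polymerase alpha, had 40.4 and 51.1 CPM against 72.7 and 72.9 CPM (0.67, SE 0.20, adjusted p = 0.0329). *Prim2*, the large primase subunit, had 35.5 and 41.4 CPM against 65.9 and 58.7 CPM (0.69, SE 0.20, adjusted p = 0.0272). The partners of these subunits had smaller differences. *Pola1*, the catalytic subunit of polymerase alpha, had 103 and 94.7 CPM against 118 and 102 CPM (0.15, adjusted p = 0.593), and its groups overlapped. *Prim1*, the catalytic primase subunit, had 41.0 and 47.9 CPM against 55.0 and 47.6 CPM (0.21, adjusted p = 0.486). None of the 4 polymerase delta genes passed, although *Pold1*, the catalytic subunit, was at 44.1 and 53.0 CPM against 67.7 and 69.8 CPM (0.50, adjusted p = 0.0815) and *Pold3* at 78.9 and 87.2 CPM against 107 and 103 CPM (0.34, adjusted p = 0.208), both without overlap. *Pold2* and *Pold4* had log2 fold changes of 0.25 and 0.13, the latter at 40 to 60 counts. *Pole2*, which binds the catalytic subunit of polymerase epsilon, had 14.6 and 18.3 CPM against 24.7 and 21.3 CPM (0.48, adjusted p = 0.174). The histone-fold subunits of polymerase epsilon did not pass, with *Pole3* at 40.7 and 55.8 CPM against 39.8 and 53.4 CPM and *Pole4* at 21.2 and 35.5 CPM against 40.1 and 33.0 CPM.

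Of the 5 clamp loader genes only *Rfc5* rose, from 35.5 and 56.9 CPM to 111 and 102 CPM (1.20, SE 0.24, adjusted p = 0.00531). *Rfc1*, the large subunit, had 130 and 156 CPM against 176 and 176 CPM (0.30, adjusted p = 0.279). *Rfc3* had 43.1 and 52.3 CPM against 46.9 and 42.8 CPM (-0.09, adjusted p = 0.775), with overlapping groups. *Rfc2* and *Rfc4* had log2 fold changes of 0.32 and 0.16 and did not pass. A test of *Rfc5* against the other 4 was not made. Among the 3 RPA genes *Rpa2*, the subunit that checkpoint kinases phosphorylate, rose from 26.3 and 34.0 CPM to 74.6 and 64.1 CPM (1.20, SE 0.21, adjusted p = 0.00271). *Rpa1*, the main DNA-binding subunit, had 66.0 and 108 CPM against 145 and 138 CPM and did not pass (0.70, SE 0.24, adjusted p = 0.0576), although it passed in 7 of 13 alternatives, the DESeq2 test among them. *Rpa3* had 18.0 and 25.5 CPM against 26.1 and 26.9 CPM (0.28, adjusted p = 0.423). Per kilobase the highest RPA subunit stood at 1.9 times the lowest in wild-type cells and at 1.1 times the lowest in the knockout. Of the genes that finish the lagging strand, *Fen1*, the flap endonuclease, had 31.8 and 61.1 CPM against 90.7 and 89.9 CPM (0.95, SE 0.28, adjusted p = 0.0301). *Lig1*, the ligase, had 74.2 and 86.1 CPM against 110 and 112 CPM and did not pass (0.47, adjusted p = 0.0911).

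The other genes of the pathway were taken from lists, and none of these lists had a gene that fell except the E2F list. Their counts stand against 13% called higher and 14.6% called lower over all tested genes. Of 9 genes listed here as origin firing regulators, a list that need not hold only factors of firing itself, 4 rose (median log2 fold change 0.55). *Dbf4*, the activating subunit of the kinase that phosphorylates MCM2-7, rose from 97.6 and 96.3 CPM to 266 and 261 CPM (1.44, adjusted p = 0.000407). Its catalytic partner *Cdc7* had a log2 fold change of -0.01. *Recql4* (0.99), *Ticrr* (0.74) and *Fbxo5* (0.72) also rose. Of 15 fork and clamp factors 2 rose (median 0.24), a share near that of all genes, the nuclease-helicase *Dna2* (1.37, adjusted p = 0.00237) and the RNase H2 subunit *Rnaseh2b* (0.95, adjusted p = 0.0106). *Pcna*, the sliding clamp, had 119 and 188 CPM against 213 and 198 CPM (0.42, adjusted p = 0.222). Of 8 nucleotide supply genes 2 rose (median 0.59), *Dtymk*, the thymidylate kinase (1.51, adjusted p = 0.00122), and *Dctpp1* (1.07, adjusted p = 0.0104), while *Rrm1*, *Rrm2* and *Tk1* did not pass. Of 7 chromatin assembly genes 1 rose, *Chaf1b* (0.82, adjusted p = 0.022, list median 0.42), again a share near that of all genes.

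Among 13 genes of E2F and pocket proteins, which control transcription of the replication genes, 1 rose and 5 fell (median -0.41), against the same 13% and 14.6% of all tested genes. The activator *E2f2* (-1.25, adjusted p = 0.0157) and the dimerisation partner *Tfdp2* (-0.998, adjusted p = 0.00342) fell, as did the repressive pocket proteins *Rb1* (-1.22, adjusted p = 0.00134), *Rbl2* (-1.10, adjusted p = 0.0078) and *Rbl1* (-0.79, adjusted p = 0.0127), and *E2f4* rose (0.86, adjusted p = 0.0305). Of 17 mitotic genes, which mark dividing cells at another stage of the cycle, 5 rose (median 0.42), namely *Aurka*, *Birc5*, *Cdc20*, *Ccnb1* and *Cdk1*, with log2 fold changes of 0.99, 0.90, 0.86, 0.79 and 0.67. *Mki67* did not pass (-0.48, adjusted p = 0.0804). With 1 library left out the number of mitotic genes called higher ran from 0 to 13, and on the *Actb* scale it was 0 for each of these lists.

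**Figure D3:**
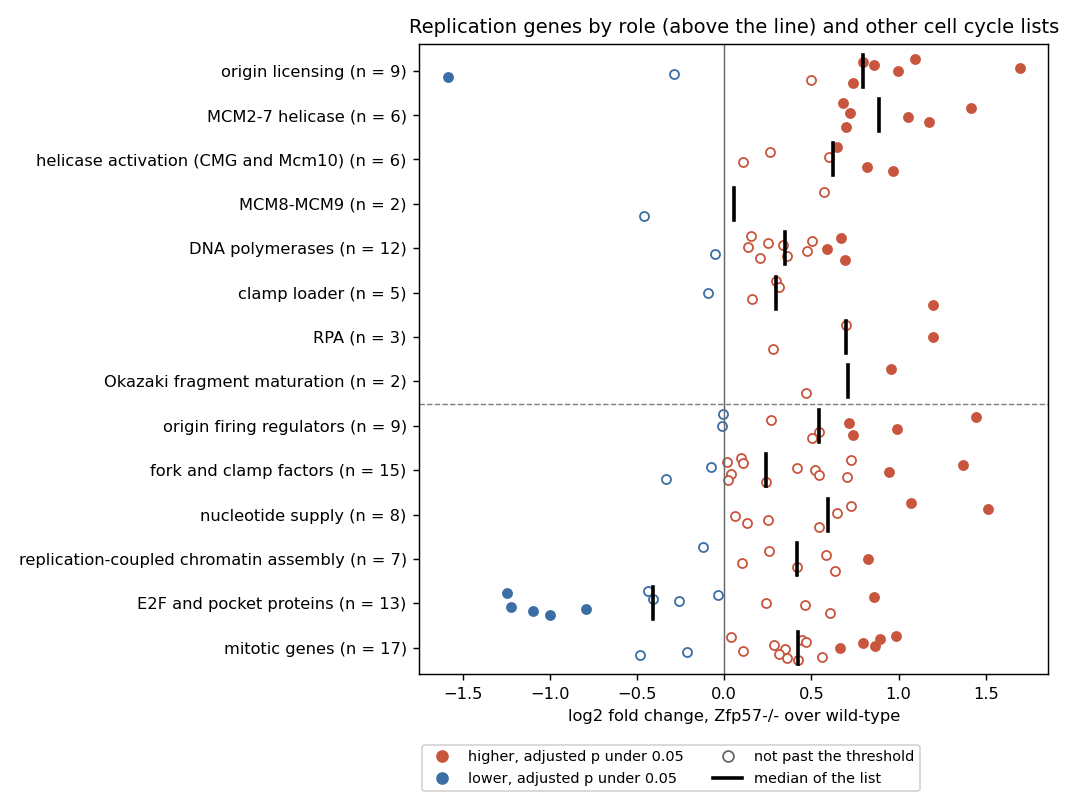
Log2 fold change (Zfp57-/- over wild-type, TMM scale) of each replication gene by role and of the genes of 6 other lists. Filled points passed the adjusted p of 0.05, open points did not, and the bar is the median of the row; all 6 MCM2-7 genes are filled and positive, and Orc4 is the filled negative point among the licensing genes.

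The second comparison used reads assigned to the maternal (JF1) or paternal (B6) allele, to ask whether both alleles of the replication genes changed alike. The libraries held between 2837013 and 3826604 such reads, 36.1% to 37.0% of the counts in genes. The maternal ratio, the share of allelic reads from the maternal allele, was tested in 43 of the 45 genes. Its median over these genes was 0.496 in wild-type cells against 0.490 in the knockout, against 0.498 and 0.489 over all 10977 tested genes. Of the 43 genes, 36 stayed between 0.33 and 0.67 in both genotypes. The share of all tested genes that did so was not taken. In wild-type cells 7 genes were biased (23.6% of all tested genes were). *Gins4*, *Mcm5*, *Pold1*, *Pold3* and *Pole2* were biased to the maternal allele, and *Orc5* and *Pole4* to the paternal allele, with maternal ratios of 0.357 and 0.379 for *Orc5* (adjusted p = 0.0194) and 0.418 and 0.376 for *Pole4* (adjusted p = 0.025).

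The change in allelic balance between genotypes passed the test in 9 of the 43 genes (14.5% of all tested genes). The balance moved towards the maternal allele for *Orc4*, *Mcm3*, *Mcm6* and *Prim2*, and towards the paternal allele for the same 5 genes that were maternally biased in wild-type cells. Over all 10977 tested genes, 459 passed with a move towards the maternal allele and 1129 with a move towards the paternal allele. *Pola1* lies on the X chromosome, of which these male cells carry the maternal copy, and all of its allelic reads were maternal, 324 and 363 in the wild-type pair and 450 and 387 in the knockout pair. *Gins3* had 0 allelic reads in each library and was not tested.

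**Figure D4:**
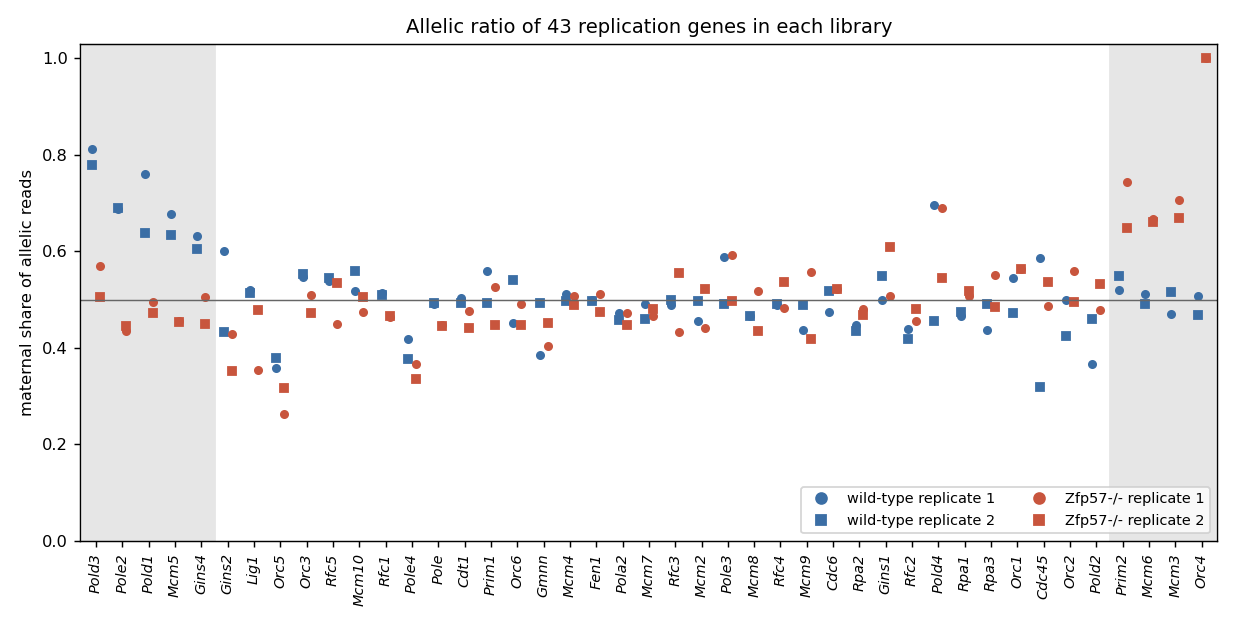
Maternal ratio in each library for 43 replication genes, ordered by the difference between genotypes. Grey shading marks the 9 genes past the genotype-by-allele test; Orc4 is at 1.0 in both Zfp57-/- libraries and Pold3 has the highest wild-type ratios, 0.812 and 0.779.

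The paternal allele of *Orc4* was not detected in *Zfp57*-/- cells. The wild-type libraries held 177 and 136 maternal reads and 172 and 155 paternal reads, and the *Zfp57*-/- libraries held 105 and 121 maternal reads and 0 paternal reads. The maternal ratios were thus 0.507 and 0.467 against 1.0 and 1.0 (95% Wilson intervals 96.5% to 100% and 96.9% to 100%, covering counting error only). The 0 of 226 reads allow a paternal share of up to 1.33%, and against a floor of 3 reads per library the paternal allele was at least 57.4-fold lower. The maternal allele had a log2 fold change of -0.55 and did not pass (adjusted p = 0.19). Genes of the region showed the same pattern. The nearest 15 genes with allelic reads had a median maternal ratio of 0.478 in wild-type cells against 1.0 in the knockout, and the nearest 15 expressed genes, within 8308 kb, had a median log2 fold change of -1.39 over both alleles.

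*Mcm3*, *Mcm6*, *Prim2* and *Orc2* lie on chromosome 1. *Mcm3* (ENSMUSG00000041859.10, minus strand, chr1:20802968-20820312) had maternal ratios of 0.471 and 0.515 in wild-type cells against 0.707 and 0.668 in the knockout (change in the log2 maternal-to-paternal ratio 1.16, SE 0.13, adjusted p = 1.37e-12). *Mcm6* (ENSMUSG00000026355.11, minus strand, chr1:128331590-128359664) went from 0.511 and 0.490 to 0.668 and 0.661 (0.99, SE 0.11, adjusted p = 3.16e-12). *Prim2* went from 0.519 and 0.549 to 0.743 and 0.648 (1.01, SE 0.26, adjusted p = 0.00249), and lost its call without *Zfp57*-/- replicate 1 (adjusted p = 0.165). *Orc2* did not pass (0.42, adjusted p = 0.309). Other genes of the chromosome moved too, by its median. Over 616 genes of chromosome 1 the median maternal ratio went from 0.490 to 0.620, whereas on other autosomes the median shifted by -0.032 to 0.003. Over both alleles the median log2 fold change of 604 chromosome 1 genes was 0.35, with 32.5% called higher, against medians of -0.05 to 0.14 on other chromosomes. Genes near *Mcm3* had a median log2 fold change of -0.27, those near *Mcm6* 0.28, near *Prim2* 0.40 and near *Orc2* 0.91. The part of the chromosome in the rise of these 4 genes was not tested. The other 4 MCM2-7 genes lie on chromosomes 5, 6, 8 and 16.

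The 5 maternally biased genes had lower maternal ratios in the knockout. *Pold3*, the accessory subunit of polymerase delta, had maternal ratios of 0.812 and 0.779 in wild-type cells against 0.569 and 0.505 in the knockout (-1.73, SE 0.18, adjusted p = 3.05e-13). *Mcm5* went from 0.677 and 0.634 to 0.455 and 0.453 (-1.16, SE 0.14, adjusted p = 2.27e-11). *Pold1* went from 0.761 and 0.637 to 0.495 and 0.472 (-1.25, SE 0.24, adjusted p = 1.58e-05). In these 3 genes, as in *Pole2* and *Gins4*, both *Zfp57*-/- libraries lay below both wild-type libraries. The 5 genes had been picked by tests on the same reads, so this order adds no support. The share of all tested genes that did so was not counted. *Pole2*, a subunit of polymerase epsilon, went from 0.688 and 0.689 to 0.435 and 0.445 (-1.49, SE 0.32, adjusted p = 0.000136), and *Gins4* from 0.632 and 0.606 to 0.506 and 0.450 (-0.82, SE 0.21, adjusted p = 0.00244). Around *Pold3* the nearest 15 genes with allelic reads had a median maternal ratio of 1.0 in wild-type cells against 0.476 in the knockout. Around *Mcm5*, *Pold1*, *Pole2* and *Gins4* the neighbours' wild-type medians were 0.515, 0.549, 0.572 and 0.491. In the knockout these medians were 0.455, 0.473, 0.515 and 0.473.

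Each allele was also compared between genotypes on its own. The maternal allele was higher in *Zfp57*-/- cells for 15 of the 43 genes (11% of all tested genes) and lower for 0 (18.3%, edgeR), and the paternal allele was higher for 21 (16.7%) and lower for 1, *Orc4* (15.9%). For 13 genes both alleles were higher (7.25%), namely *Orc1*, *Orc2*, *Cdc6*, *Mcm2*, *Mcm3*, *Mcm4*, *Mcm6*, *Mcm7*, *Mcm10*, *Pola2*, *Pole*, *Rfc5* and *Rpa2*. *Orc1* rose by log2 fold changes of 1.96 on the maternal and 1.62 on the paternal allele. *Mcm3* rose by 1.91 on the maternal allele (adjusted p = 0.000162) and 0.75 on the paternal allele (adjusted p = 0.0251), and *Mcm6* by 1.62 and 0.62 (adjusted p = 0.0447 for the paternal allele). The opposite order was seen in *Mcm5*, with 0.67 on the maternal allele (adjusted p = 0.0825) and 1.82 on the paternal allele (adjusted p = 0.000502). *Pold3* had -0.08 on the maternal and 1.66 on the paternal allele (adjusted p = 0.000137), and was not called over both alleles. *Pold1* (0.19 and 1.45) and *Pole2* (0.05 and 1.53) were alike in this, neither being called over both alleles. *Prim2* had 1.09 on the maternal and 0.06 on the paternal allele. Over all 10977 tested genes the paternal allele was higher in 1836, the maternal allele in 1209 and both in 796. Among the replication genes, 8 were higher on the paternal allele alone and 2, *Prim2* and *Rpa1*, on the maternal allele alone. Of these 10 genes 6 also passed the test of the difference between alleles, and for *Cdt1*, *Gmnn*, *Lig1* and *Rpa1* a difference between the alleles was not shown.

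**Figure D5:**
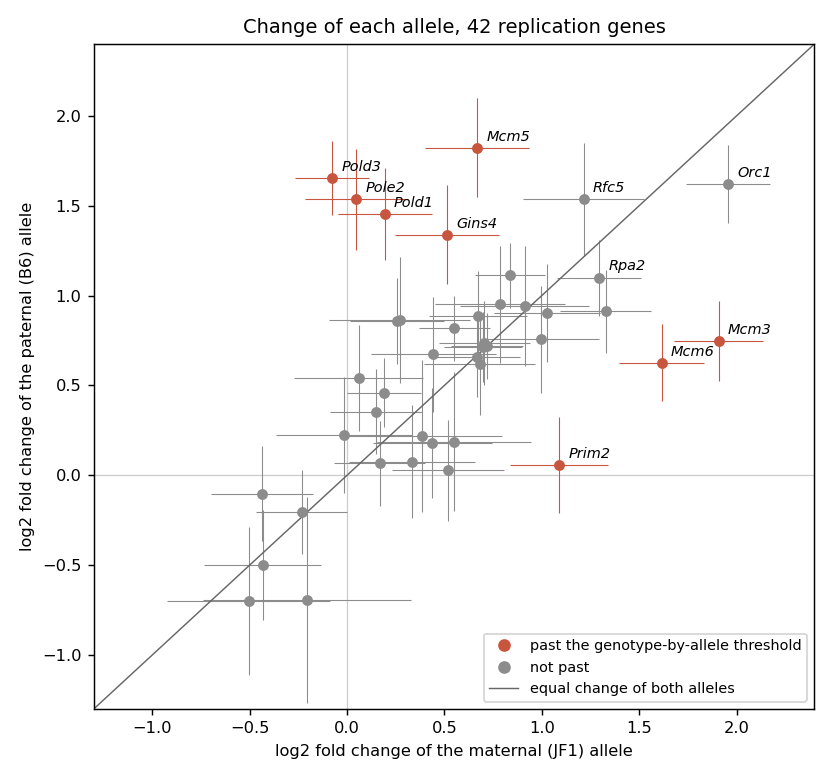
Log2 fold change (Zfp57-/- over wild-type) of the maternal allele on the x axis and of the paternal allele on the y axis, with SE, for 42 replication genes; Orc4 is left out because it had 0 paternal reads in Zfp57-/- cells. Mcm3, Mcm6 and Prim2 lie on the maternal side of the diagonal, and Mcm5, Pold1, Pold3, Pole2 and Gins4 on the paternal side.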

How the data were processed

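The deposited tables hold raw counts per gene, which the authors made from ribosome-depleted stranded paired-end RNA-seq with Trimmomatic 0.36, STAR 2.5.4a (unique alignments, GRCm38/mm10) and featureCounts of Subread 1.6.0 on GENCODE vM20, and with SNPsplit for reads of one allele. Symbols were matched by gene ID to a reference table of gene names (54721 of 55602). Genes with more than 8 counts over the 4 libraries were tested in edgeR 4.0.16 (R 4.3.3, TMM, robust quasi-likelihood, no block, Benjamini-Hochberg threshold 0.05). Each SE was derived from the test, as the absolute log2 fold change divided by the square root of the F statistic. CPM and FPKM were computed here from TMM-adjusted library sizes and the table's exon lengths. Allelic counts were fitted with library and allele terms per genotype, over autosomal genes with at least 10 normalised allelic reads in both wild-type libraries. Exons of 4 members shared bases with another gene on the same strand, none over 10% of their length. More was shared with genes on the opposite strand, the most being 84.2% of exon bases for *Fen1*, 67.3% for *Gins2* and 29.8% for *Orc2*. The effect of this on their counts was not tested. By rule, values per library were given for members past either threshold, on chromosome 1 or X, or at the ends of their role group; those of other members were added after they were seen. Of a pathway list up to 4 called genes of largest change were named, and *Pcna*; other list genes and individual markers named (*Cdc7*, *Rbl1*, *Cdk1*, *Mki67*, *Rrm1*, *Rrm2*, *Tk1*, *Hes5*, *Pax6*, *Nanog*) were chosen after their values were seen. The members and lists were chosen with earlier results of these data known. The fits were tested on simulated data. Alternatives were DESeq2 1.42.0, other scalings and filters, gene-length correction, a stricter threshold, a replicate block and each library left out. The libraries' depth limits low genes most, such as *Pold4* (40 to 60 counts). Sequences are RefSeq's.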

Additional observations from a re-analysis of the deposited data

Results flagged for a closer look

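For 9 replication genes the effect of genotype differed between the maternal and paternal alleles by a test of that difference (edgeR, Benjamini-Hochberg adjusted, 10977 genes), given here as the change in the log2 maternal-to-paternal ratio. It was positive for *Mcm3* (1.16), *Mcm6* (0.991) and *Prim2* (1.01), and negative for *Mcm5* (-1.16), *Gins4* (-0.821), *Pold1* (-1.25), *Pold3* (-1.73) and *Pole2* (-1.49). For *Orc4* the fitted value of 9.87 depends on the prior count, because both *Zfp57*-/- libraries had 0 paternal reads, and the bound is a paternal level at least 57.4-fold lower. The share of all tested genes past this test was 14.5%, with 459 positive and 1129 negative. In the DESeq2 test *Gins4* (adjusted p = 0.255), *Prim2* (0.256) and *Pole2* (0.0685) did not pass.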

How the results depend on the processing

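Directions held more widely than calls. With DESeq2 size factors, the DESeq2 test, upper-quartile scaling, either other low-count filter or the replicate block, no replication gene changed sign. With all 4 libraries, counts of higher genes stayed within 1.5 times of 21, and of MCM2-7 genes of 6, with these exceptions. At an adjusted p under 0.01 they were 8 and 2, with 6.3% of all tested genes called higher. On the *Actb* scale they were 0 and 0, with 2.43% called higher, and the median log2 fold change was -0.05932. On that scale these changed sign: *Orc5* (-0.2006), *Gins1* (-0.265), *Gins3* (-0.49), *Mcm8* (-0.1191), *Pola1* (-0.5508), *Prim1* (-0.4377), *Pold1* (-0.139), *Pold2* (-0.3674), *Pold3* (-0.3262), *Pold4* (-0.4986), *Pole* (-0.05932), *Pole2* (-0.1435), *Pole4* (-0.1889), *Rfc1* (-0.3475), *Rfc2* (-0.2491), *Rfc4* (-0.4645), *Rpa3* (-0.3141) and *Lig1* (-0.1814). Gene-length correction turned *Gins3* (-0.007825), *Pold4* (-0.1147) and *Rfc4* (-0.02105). With 1 library left out the sign was not fixed for *Orc3* (-0.5613 to 0.01656), *Gins1* (-0.1458 to 0.8071), *Gins3* (-0.1177 to 0.3477), *Rfc2* (-0.01993 to 0.7167), *Rfc4* (-0.02076 to 0.338), *Pole3* (-0.2852 to 0.1913) and *Rfc3* (-0.2485 to 0.05524), the turning libraries being wild-type replicate 1 for the first 5 and wild-type replicate 2 for the last 2. *Zfp57*-/- replicate 1 also turned *Gins3* and *Pole3*. None of these had been called except *Pole*. The cause was not tested.

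With 1 library left out, 7 to 35 replication genes were higher and 1 to 3 lower, 3 to 6 MCM2-7 genes were higher, and the median log2 fold change ran from 0.4169 to 0.8064. Higher genes numbered 1 to 6 for origin firing, 1 to 10 for fork and clamp, 1 to 7 for nucleotide supply, 0 to 6 for chromatin assembly, 0 to 3 for E2F and 0 to 13 for mitosis, and lower genes 1 to 8 for E2F and 0 to 2 for fork and clamp and for mitosis. A lone library was assumed to vary like the other genotype's pair. With all libraries, changes in allelic balance numbered 9 in edgeR and 6 in DESeq2, and wild-type biases 7 and 4. Over all 10977 tested genes the changes in allelic balance went from 1588 in edgeR to 837 in DESeq2. Wild-type biases went from 2587 to 1180.

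On the *Actb* scale 0 genes were higher in each of the 6 pathway lists, against 2.43% of all tested genes. At an adjusted p under 0.01, 1 origin firing, fork and clamp, nucleotide supply and mitotic gene each, 0 chromatin and 0 E2F genes were higher and 3 E2F genes lower. At that threshold 6.3% of all 19995 tested genes were called higher, and 1641 genes lower. Fork and clamp genes called higher numbered 5 with upper-quartile scaling, 4 without a filter, with a stricter filter and with gene-length correction. Nucleotide supply genes numbered 4 without a filter and with gene-length correction. Chromatin genes numbered 2 with upper-quartile scaling, a stricter filter and gene-length correction, and 3 without a filter. E2F genes called higher numbered 2 with upper-quartile scaling and without a filter. The share of all tested genes called higher was 13.7% with upper-quartile scaling and 10.6% without a filter. It was 16% with the stricter filter and 14.3% with gene-length correction.

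The labels number the duplicates of each genotype 1 and 2 without saying what a number marks, and same-numbered libraries deviated together with a correlation of 0.1413 over 10105 genes. With the replicate block 24 replication genes were higher and 1 lower. Of all 19995 tested genes 6984 were called, 3489 as higher (17.4% of those tested) and 3495 as lower. Beside that share, fork and clamp genes called higher numbered 5, nucleotide supply 5, chromatin assembly 3 and E2F 2.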
